A study of Rattus norvegicus with 22 samples.

Results

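Igfbp1 and Igfbp2 encode the insulin-like growth factor binding proteins 1 and 2, secreted liver proteins that bind IGF-I and IGF-II in the circulation. They were chosen by their presence under these names in the female table of the deposited data, where they make up 2 of 69 rows (1 row each, on chromosomes 14 and 9 of the deposited annotation). The rows of that table had themselves been selected on the difference between the diet groups: the authors' deposited table gives Igfbp1 as down with a log2 size of 1.926 and a p of 0.01024, and Igfbp2 as down with a log2 size of 1.412 and a p of 0.03658, with no word on adjustment. The differences between the groups are therefore given below as a description, without a test. Neither gene was among the 1365 rows of the male table, and their levels in males were not analysed here.

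All animals were Wistar rats whose livers were taken at postnatal day 110 for RNA sequencing. The females were 6 offspring of mothers on a control diet and 5 offspring of mothers on an obesogenic diet (maternal obesity, MO), and each animal gave 1 library. The males of the series were 6 control and 5 MO offspring of the same strain and age. The sources used here name neither the litters, nor the composition of the diets, nor the diet of the offspring themselves. Since litters are not given, the spread between animals may include littermates.

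IGF binding proteins hold the insulin-like growth factors away from their receptor and prolong their stay in the blood. Insulin is the main brake on hepatic Igfbp1: when insulin is low, as in fasting, the transcription factor FOXO1 occupies an insulin response element in the Igfbp1 promoter and transcription rises, and glucocorticoids and glucagon-driven cyclic AMP raise it too. Igfbp2 is also made by hepatocytes, is raised by prolonged fasting and low insulin, and changes more slowly than Igfbp1. Both proteins carry an RGD motif through which they can bind integrins.

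The promoters are shown first because the pair had the same direction in MO females while their upstream sequences differ in composition. Each window runs from 250 bases before to 50 bases after the start of the gene, from RefSeq on build GRCr8, which is not the build rn5 named in the submitters' processing notes. Both lie on the plus strand, at chr14:86261027-86261326 for Igfbp1 and chr9:81864561-81864860 for Igfbp2. Capitals mark matches to the motifs described below.
Igfbp1: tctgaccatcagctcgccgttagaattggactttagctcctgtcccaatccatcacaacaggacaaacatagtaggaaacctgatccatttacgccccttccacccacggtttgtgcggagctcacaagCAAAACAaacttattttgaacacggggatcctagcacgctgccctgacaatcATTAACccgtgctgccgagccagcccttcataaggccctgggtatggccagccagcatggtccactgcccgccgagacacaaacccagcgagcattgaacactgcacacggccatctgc
Igfbp2: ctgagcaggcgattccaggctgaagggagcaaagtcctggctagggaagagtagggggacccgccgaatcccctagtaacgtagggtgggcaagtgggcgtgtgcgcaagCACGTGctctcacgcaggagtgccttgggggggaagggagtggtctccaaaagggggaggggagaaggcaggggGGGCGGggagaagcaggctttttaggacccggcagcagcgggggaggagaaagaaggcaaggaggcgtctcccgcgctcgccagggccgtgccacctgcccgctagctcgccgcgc

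Motifs were searched on both strands by their letters, and were chosen with the sequences in view. The core of the insulin response element, CAAAACA, had 1 match in the Igfbp1 window, 121 bases before the start, and 0 in that of Igfbp2. It occurs in 6.28% of the 33469 RefSeq promoter windows of this length. The half-site of the liver transcription factor HNF1, GTTAAT, had 1 match in Igfbp1, 69 bases before the start, where it stands on the minus strand, and 0 in Igfbp2 (7.45% of all windows). The Igfbp2 window held 1 GC box, GGGCGG, 66 bases before the start (33.1% of all windows), and 1 E-box, CACGTG, 140 bases before the start (6.42% of all windows). Neither occurred in the Igfbp1 window. The glucocorticoid half-site AGAACA (20.7% of all windows) and the TATA box TATAAA (14.2%) had 0 exact matches in either window. No 2 matches overlapped. The GC content was 54.0% for Igfbp1 and 66.7% for Igfbp2, with 13 and 20 CpG dinucleotides, against medians of 51.7% and 7 over all windows. These are matches of letters only.

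Igfbp1 was lower in the liver of MO females than in controls. Its level, in RPM (reads of the gene per 1000000 reads of the library, with no correction for length), was 139 at the lowest, 296 at the median and 589.7 at the highest in the 6 controls. The MO animals 1 to 5 had 31.6, 51.0, 217, 49.3 and 133 RPM. Of the 5 MO animals 4 lay below every control, and MO female 3 lay above control females 1 and 3, which had 155 and 139 RPM. The mean was 329 ± 182 RPM (SD, n = 6) in controls and 96.3 ± 77.9 RPM (SD, n = 5) in MO animals. The difference was -1.93 ± 0.60 (SE) on the log2(RPM + 1) scale, and the mean RPM differed 3.42-fold. In bulk tissue fewer expressing cells and less RNA per cell cannot be told apart.

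Igfbp2 was lower in MO females as well. The controls ranged from 14.8 through a median of 32.4 to 68.8 RPM, and MO animals 1 to 5 had 5.18, 6.28, 10.99, 10.8 and 42.3 RPM. Again 4 of 5 MO animals lay below every control, but the exception was another animal: MO female 5 lay above control females 1, 3, 4 and 5. The mean was 36.0 ± 20.2 RPM (SD, n = 6) in controls and 15.1 ± 15.4 RPM (SD, n = 5) in MO animals, and the difference was -1.41 ± 0.54 (SE) on the log2(RPM + 1) scale. Without MO female 5 it was -1.87 ± 0.54 (SE). MO females 1, 2 and 4 were the animals below every control for both genes. Groups did not overlap for 10.1% of the 69 listed transcripts, and neither Igfbp1 nor Igfbp2 was among them.

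**Figure D1:**
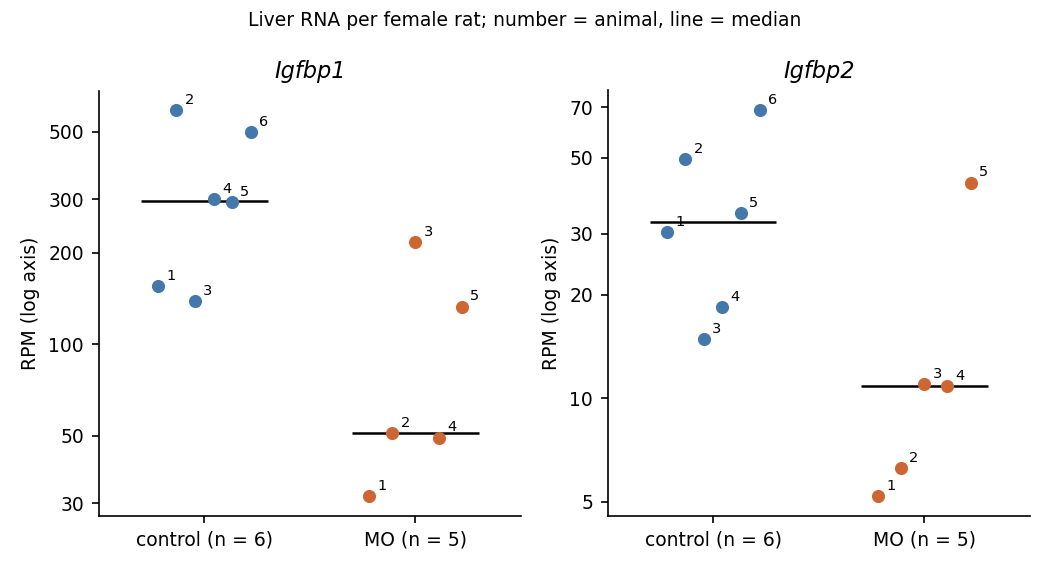
Igfbp1 (left) and Igfbp2 (right) in RPM on log axes, 1 point per female rat with the animal's number, and a line at the group median, which was 296 RPM in controls and 51.0 RPM in MO animals for Igfbp1. MO female 3 lies within the control range for Igfbp1 and MO female 5 for Igfbp2, and the other MO animals lie below it.

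The spread between animals was wide in both groups. The highest control exceeded the lowest 4.25-fold for Igfbp1 and 4.64-fold for Igfbp2, and the highest MO animal exceeded the lowest 6.85-fold and 8.15-fold. The coefficient of variation of the RPM values was 55.3% and 56.2% in controls and 80.9% and 102.0% in MO animals. Counting error was smaller. From the size of 1 read in each library, Igfbp1 had about 348 to 6641 reads per animal and Igfbp2 about 57 to 675, which corresponds to counting errors of 1.23% to 5.36% and 3.85% to 13.2%. Depth in females was 9180000 to 11780000 reads in controls and 10460000 to 11720000 reads in MO animals, as estimated from these steps.

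Set among all transcripts listed for females, Igfbp1 had the sixth and Igfbp2 the thirteenth largest difference by size, and among the 24 lower ones they ranked 4 and 9. A difference of at least 1 on the log2 scale was seen for 25 of the 69. The whole table had been selected on this contrast, with no difference under 0.48, so these ranks describe the list only. Centring each library on its median over the listed transcripts moved the median difference of the table from 0.59 to 0.37, and gave -2.15 for Igfbp1 and -1.64 for Igfbp2.

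**Figure D2:**
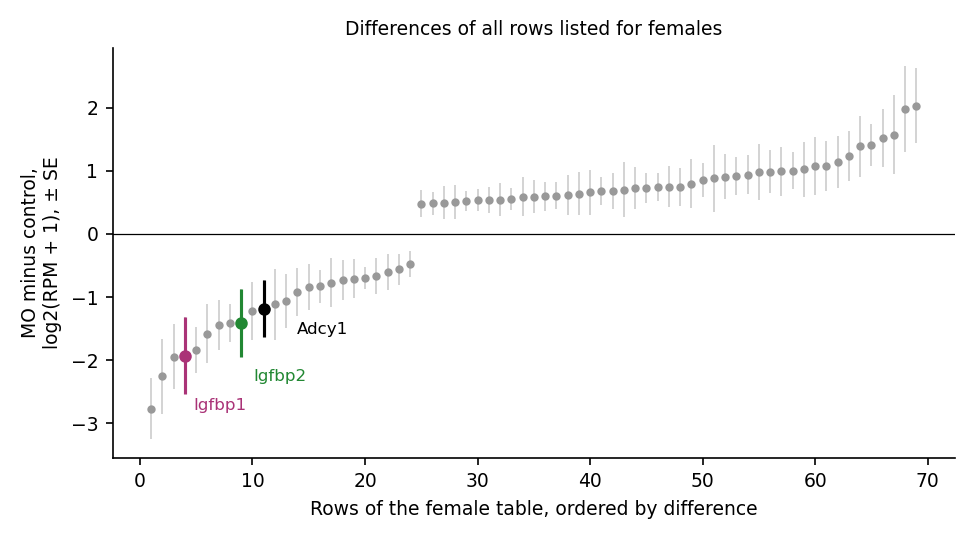
Difference between MO and control females on the log2(RPM + 1) scale, ± SE, for the 69 transcripts of the female table in order of size. Igfbp1 (-1.93), Igfbp2 (-1.41) and Adcy1 (-1.19) are in colour or black, and no listed difference is smaller than 0.48 in size.

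The next question was whether the 2 transcripts varied together among animals that shared a maternal diet. The difference of the group means does not enter this. The spread within groups may have entered the selection of the table, since a p-value for the contrast depends on it. Control females 2 and 6 had the highest levels of both genes (589.7 and 499 RPM of Igfbp1, 49.4 and 68.8 RPM of Igfbp2), and control female 3 the lowest of both. MO female 1 was the lowest MO animal for both. As deviations from the group mean on the log2 scale, the 2 genes had a Pearson r of 0.678 over the 11 animals (exact two-sided permutation within groups, p = 0.0344) and a Spearman rho of 0.745 (exact p = 0.016). After Benjamini-Hochberg adjustment over the 4 relations computed, these were exact p = 0.138 and exact p = 0.0642, so the relation did not pass. Without MO females 1 and 3, the 2 animals farthest from the median deviation of Igfbp1, r was 0.809 (exact p = 0.0157, unadjusted). In the 6 controls alone r was 0.764 (exact p = 0.0736, adjusted 0.147) and rho 0.771 (exact p = 0.103, adjusted 0.206). Without control females 2 and 3 it was 0.557, over 4 animals that are too few for a test. The 5 MO animals are also too few for a correlation of their own.

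Depth was set beside both genes. The deviations of Igfbp1 and of depth had an r of 0.07 (rho 0.173) and those of Igfbp2 and depth an r of -0.03 (rho 0.07), with exact permutation p = 0.832 and 0.916 (adjusted 0.916 each) for r and 0.607 and 0.846 (adjusted 0.809 and 0.846) for rho. Without the 2 farthest animals these r were 0.271 and -0.10. Centring on the library medians lowered the relation between Igfbp1 and Igfbp2 to an r of 0.528 (exact p = 0.119).

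**Figure D3:**
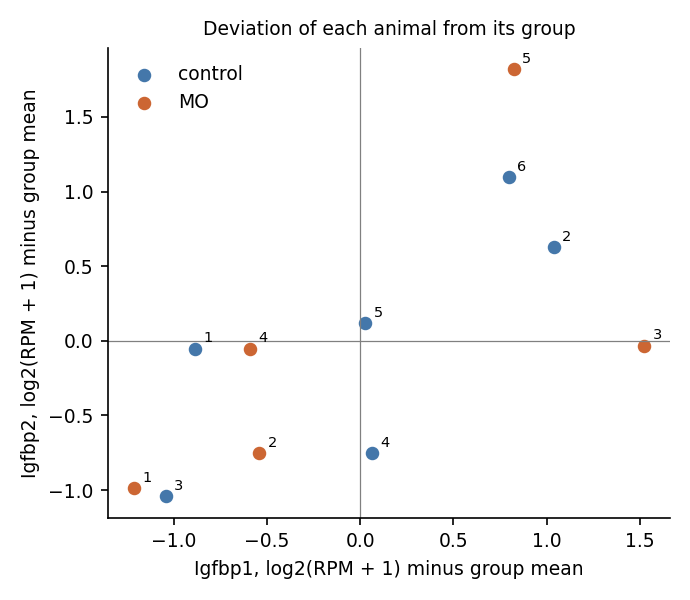
Deviation of each female from her group mean on the log2(RPM + 1) scale, Igfbp1 on the horizontal and Igfbp2 on the vertical axis, numbered by animal. Control females 2 and 6 and MO female 5 lie at the upper right, control female 3 and MO female 1 at the lower left, and MO female 3 is high for Igfbp1 alone (r = 0.678 over 11 animals).

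The 2 transcripts were also set against each other within each animal, as log2(RPM + 1) of Igfbp1 minus that of Igfbp2, into which the lengths of the transcripts enter nearly alike in every animal. This log2 ratio was 3.14 ± 0.57 (SD, n = 6) in controls and 2.63 ± 0.97 (SD, n = 5) in MO animals, a difference of -0.51 ± 0.47 (SE). It was -0.90 without MO female 3 and -0.26 without MO female 5. The highest and the lowest ratio were both in MO animals, at 4.18 in MO female 3 and 1.63 in MO female 5. These are the same 2 animals that lay within the control range for 1 gene each.

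A likeness to each gene was computed as the Pearson r of within-group deviations over the 11 females, for the 52 other named transcripts of the table with a mean of at least 1 RPM. All share the same libraries, and 51 of 52 had a positive r with Igfbp1, with a median of 0.536. Igfbp2 ranked 16 of 52 by likeness to Igfbp1. The transcripts most like Igfbp1 were Cyp4a2, a fatty acid omega-hydroxylase (r = 0.858), the schlafen family member Slfn13 (0.857), the adenylyl cyclase Adcy1 (0.839), the lysosomal galactosylceramidase Galc (0.824) and the calcium pump Atp2a2 (0.823). Those least like it were the somatostatin receptor Sstr3 (-0.20), the class I histocompatibility gene RT1-N1 (0.143) and the kinase Sgk1 (0.241). Their differences between MO and control females were of both signs: -1.12 ± 0.55 for Cyp4a2, -1.19 ± 0.45 for Adcy1 and -2.25 ± 0.59 for Atp2a2, against 0.70 ± 0.43 for Slfn13 and 0.54 ± 0.27 for Galc (SE, log2 scale).

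For Igfbp2 the median r was 0.503, again positive for 51 of 52, and Igfbp1 ranked 12. The most alike were the complement receptor C5ar2 (r = 0.781), the receptor tyrosine kinase family member Ror1 (0.78), the cation channel Trpv1 (0.772), Slfn13 (0.741) and the small GTPase Rab7b (0.736). The least alike were the glycolytic enzyme Eno1 (-0.07), Sstr3 (0.02) and the neuronal adaptor Apba2 (0.158). C5ar2 and Ror1 had differences of -0.84 ± 0.36 and -0.66 ± 0.29 (SE) between MO and control females, and Trpv1 and Rab7b of 0.62 ± 0.32 and 0.59 ± 0.27 (SE). Slfn13 was the 1 transcript among the 5 most alike of both genes. After centring, the median r was 0.24 for Igfbp1, with 42 of 52 positive, and 0.147 for Igfbp2, with 32 of 52 positive. Igfbp2 then ranked 15 by likeness to Igfbp1, and Igfbp1 ranked 6 by likeness to Igfbp2.

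Adcy1 is the protein-coding gene next to Igfbp1 on chromosome 14 in the GRCr8 annotation, with Igfbp3 on the other side. It encodes an adenylyl cyclase that makes cyclic AMP and is stimulated by calcium and calmodulin, known mainly from brain. Its level in control females 1 to 6 was 8.94, 14.1, 3.63, 13.1, 11.1 and 23.7 RPM, and MO animals 1 to 5 had 2.27, 2.00, 10.1, 5.01 and 5.12 RPM. Of these, 2 of 5 lay below every control. The means were 12.4 ± 6.65 RPM (SD, n = 6) and 4.91 ± 3.27 RPM (SD, n = 5), and the difference was -1.19 ± 0.45 (SE) on the log2 scale. MO female 3, which stood out for Igfbp1, was also the highest MO animal for Adcy1. With this animal left out the likeness to Igfbp1 was 0.775, the lowest value with any 1 animal left out, and after centring it was 0.765, which ranked 2 of 52. The likeness of Adcy1 to Igfbp2 was 0.633, which ranked 17. Whether reads of one gene were counted for the other was not tested.

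**Figure D4:**
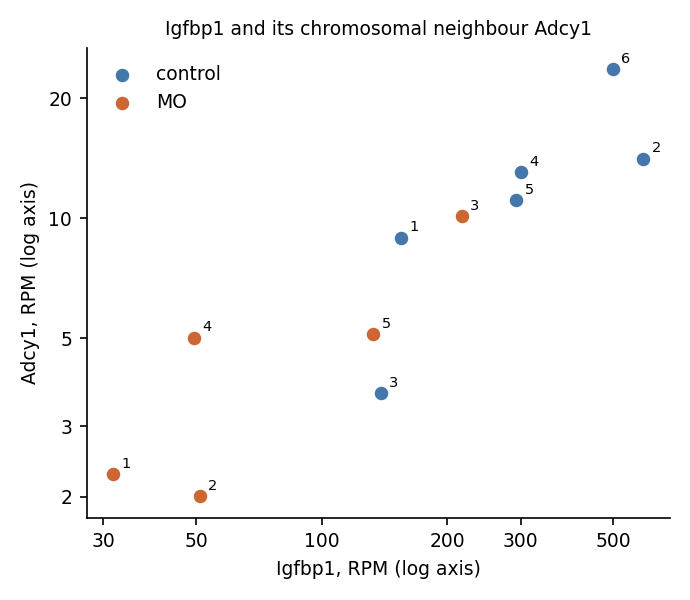
Igfbp1 (horizontal) and Adcy1 (vertical) in RPM on log axes, 1 point per female rat, numbered by animal. MO females 1 and 2 are low for both, with 2.27 and 2.00 RPM of Adcy1, and MO female 3 lies among the controls for both.

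Of the other neighbours, Igfbp3, the main carrier of IGF in serum, and Igfbp5, which lies beside Igfbp2, were in neither table. Rpl37a, a ribosomal protein gene on the other side of Igfbp2, was in the male table at -0.54 ± 0.19 (SE). Relative to the median of that table, in which 1317 of 1365 rows were lower, Rpl37a was at 0.05. The deposited table gives no position for that transcript, and ribosomal protein genes have near-identical copies, so its assignment is uncertain.

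The wider pathway was taken from 9 lists with 111 gene symbols. They covered IGF ligands and receptors, the binding proteins, their proteases, and insulin and growth hormone relays. The others were fasting and glucocorticoid response, nutrient stress, liver transcription factors and RGD-binding integrins. Some symbols are names of the same gene (G6pc and G6pc1, Mt1a and Mt1, Mt2A and Mt2), so the lists hold fewer genes than symbols. Of the 111, the female table listed 7. These were Igfbp1 and Igfbp2, of 7 IGF binding proteins, and 5 genes of the glucagon, fasting and glucocorticoid list, which held 25 symbols. The other 7 lists had 0 members there, among them Igf1, the IGF receptor Igf1r, the acid-labile subunit Igfals, the insulin receptor Insr and Foxo1. Levels of unlisted transcripts were not analysed here.

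The 5 listed genes of the fasting and glucocorticoid group were of both directions: 4 were higher in MO females and 1, Gadd45b, was lower, as the binding proteins were. The table had been selected on this contrast, so these are given as a description. The limma threshold, which 81.2% of its transcripts passed, was passed by 3 of the higher genes and by Gadd45b, and nothing is read from that count. The glucagon receptor Gcgr had a difference of 1.07 ± 0.46 (SE) on the log2 scale. It averaged 10.5 ± 4.33 RPM (SD) in the controls and 23.4 ± 10.9 RPM (SD) in the MO females, of which 4 exceeded every control. The metal-binding metallothioneins Mt2A (1.98 ± 0.67, SE) and Mt1a (1.57 ± 0.63, SE) exceeded every control in 3 and in 2 MO females. Gadd45b, a stress-induced gene, had a difference of -1.22 ± 0.46 (SE) and was under every control in 4 of the 5 MO females. The insulin- and glucocorticoid-responsive kinase Sgk1 was at 0.79 ± 0.39 (SE). Centring shifts every listed difference by the same amount. That amount is smaller than the smallest listed difference, so none of the 5 could change direction.

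In males 10 genes of the 111 symbols were listed, all past the limma threshold, as were 100% of the rows of that selected table. Of these, 4 had a positive and 6 a negative difference between MO and control males. The median difference of the male table was -0.58. Centring on the listed rows removed it by construction, since 1317 of the 1365 rows were lower. Centred values in males are therefore relative to that selected list. Whether whole libraries had shifted or the listed genes had decreased was not tested. The 4 higher genes, which centring could only move further up, were the growth hormone feedback inhibitor Socs2 (2.23 ± 0.44, SE), the pyruvate dehydrogenase kinase Pdk4 (1.66 ± 0.21, SE), the phosphatase Dusp1 (0.68 ± 0.21, SE) and the insulin receptor substrate Irs2 (0.65 ± 0.23, SE). The growth hormone signal transducers Stat5a and Stat5b were at -0.61 ± 0.18 and -0.61 ± 0.20 (SE), or -0.03 each after centring. Mmp2, Pdpk1 and Nfe2l2 had differences of -0.51, -0.49 and -0.53 on the log2 scale, and of 0.07, 0.09 and 0.06 after centring. In 2 of the 10, Pdk4 and Mmp2, the groups did not overlap, against 30.6% of the male table. No gene of these lists was in both tables, so an effect of the diet could not be compared between the sexes.

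The labelled tissue could be checked only in part, since the tables hold selected transcripts. Of 10 hepatocyte markers 0 were in the female table, and Cps1 was in the male table at 1265 ± 362 RPM in controls (SD, n = 6). Of all 49 markers, which cover hepatocytes and 8 other groups, 1 was in the female table: Cela1, an elastase and 1 of 5 pancreas markers, lay at 2.92 ± 2.14 RPM (SD, n = 6) in controls and 0.354 ± 0.374 RPM (SD, n = 5) in MO females, and at 0 in the lowest MO animal. Its part in the differences of Igfbp1 and Igfbp2 was not tested.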

How the data were processed

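Per the labels' protocols, RNA came from 10 to 20 mg of liver and libraries from an Illumina TruSeq kit (1 µg input). STAR 2.3.1j, Partek and build rn5 appear in the submitters' processing notes without their roles. The counting rule and annotation are not stated there. The deposited values per animal are RPM with 1 added, inferred from the values: the lowest was exactly 1, and 54.5% to 61.7% of low values (under 3 RPM) in female libraries lay within 0.03 of a read of a whole number of reads. The remainder did not, so no count test was run. The deposited fold column is the size of the log2 difference of group means, recovered within 0.006 for 67 of 69 female and 1365 of 1365 male rows. How the deposited p-value was computed or adjusted is not stated.

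RPM was obtained by subtracting 1, and log2(RPM + 1) was fitted per table with limma 3.58.1 (trend, R 4.3.3), with Benjamini-Hochberg adjustment over its rows at 0.05. The fit was tested on simulated data. Since rows had been selected on the contrast, adjusted p-values describe the list and are no false discovery rate. Same-numbered animals were not treated as pairs. Alternatives were other pseudocounts, centring on library medians, group medians, the replicate number as a block, exact permutation per transcript and each animal left out. For Adcy1, centring and leaving out animals were added after seeing the data. Promoters came from RefSeq (GRCr8), matched by symbol for 2 of 2 members. Correlations used exact permutation within groups (86400 orders). The members and lists were chosen with earlier results of these data known, as was part of the naming rule. That rule took the members, their listed neighbours, and listed genes of the fixed lists (in males up to 6, by size of difference). For each member it also took the 5 transcripts most and 3 least alike. In males Mmp2, Pdpk1 and Nfe2l2 were named in addition to these. Of the 10 male genes of the lists, 1 is not reported here by name.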

Additional observations from a re-analysis of the deposited data

Results flagged for a closer look

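Igfbp2 in MO female 5 was 42.3 RPM, against 5.18 to 10.99 RPM in the other 4 MO animals. In RPM, its gap to the nearest animal was 0.843 of the range of the group, above Dixon's critical value of 0.71 for 5 samples. The flag depends on the scale. On the log2(RPM + 1) scale this animal was at 5.44, against 2.63 to 3.58 in the other 4, and the gap lies under the critical value. It was the 1 value to meet this criterion among 8 sets of values examined (Igfbp1, Igfbp2, their log2 ratio and Adcy1 in each female group). Chance marks about 1 in 20 for each set if its values are normally distributed, so 1 among 8 is not a rare count. Igfbp1 in the same animal was 133 RPM, the second highest of the MO group.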

How the results depend on the processing

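The differences of Igfbp1 and Igfbp2 kept their sign under pseudocounts of 0.1 and 5, group medians, the replicate block and with each animal left out. Leaving out 1 animal gave -2.31 to -1.62 for Igfbp1 and -1.87 to -1.17 for Igfbp2, and group medians gave -2.51 and -1.50. Centring could not change their sign, since it shifts every listed difference alike. All settings moved them by less than the SD between animals (0.98 and 0.95). This limit is wide, and leaving out 1 animal could hardly exceed it. With the replicate number as a block the differences of Igfbp1 and Igfbp2 were -1.77 ± 0.83 and -1.19 ± 0.68 (SE). Control female 6 has no same-numbered MO animal, so the block sets it aside. These estimates therefore repeat those without that animal. The deviations of same-numbered females had r of 0.333, 0.05, -0.42, 0.252 and 0.186 over the table in the 5 pairs, over 0.1 in 3 of 5, and the numbers were taken as pairs only if all 5 were. The difference in the ratio stayed negative, at -0.72 with a pseudocount of 5 and from -0.90 to -0.26 with 1 animal left out. The correlation of Igfbp1 with Igfbp2 was 0.528 after centring and 0.611 to 0.84 with 1 animal left out, where 5 of 11 settings had an exact p under 0.05. Its blocked form was not run, since 5 pairs are fewer than the 6 needed. Of the female transcripts 56 passed limma, 26 with the block and 34 to 53 with 1 animal left out (34 without MO female 2 and 37 without MO female 5). By exact permutation 4 passed (62 at an unadjusted exact p under 0.05). Igfbp1 and Igfbp2 were among the 56 and not among the 4. Nothing is read from either, since the rows had been selected on this contrast. Of the male ones 1365 passed, and 72 after centring, which takes out the median decrease of the list itself. The causes of these changes were not tested.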
